A study of Rattus norvegicus with 8 samples.

Results

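Among the 8 RNA sequencing libraries of primary rat nucleus pulposus cells in the study, 4 were made from cells with the control vector, and they are described here on their own. All 4 were taken by the name in their titles, PLKO1_NaCl, and no measured value was used to choose them. The PLKO1_NaCl cells carried the control vector, and for 8 h before RNA isolation 110 mM NaCl was added to their medium. The other 4 libraries, ShTon_NaCl, came from cells with a hairpin RNA against TonEBP, the factor encoded by Nfat5, in medium with the same added salt. The cells of both groups had grown out of tissue explants and were expanded in DMEM with FBS and antibiotics. The titles number the libraries of each group from Set 1 to Set 4, and control library 1 below is that of Set 1. No test was made between the groups. The labels give no strain, sex, age or passage, and do not say whether the Sets were separate animals. They also do not say whether the same Set number marks the same cells in both groups. Repeats by Set below are therefore matched by number only. Since no culture without added salt is described, a level below is a level in added NaCl and not a response to it.

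The nucleus pulposus is the gel-like core of the intervertebral disc, and its charged proteoglycans hold water and ions around cells that receive little oxygen. Such cells are known for a matrix of aggrecan and type II collagen, for notochord-derived markers such as brachyury and keratins, and for genes that make or import organic osmolytes. TonEBP is the transcription factor that switches on many of those osmolyte genes when the medium is hypertonic.

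The 4 control libraries held between 9567488 and 14743387 reads on 13613 listed genes. Values are the authors' normalized counts, in which each library's reads were divided by a factor for its depth, and 4 values in a row are those of control libraries 1, 2, 3 and 4. A listed gene had a median of 298.8 normalized counts, and 12930 genes were read in all 4 libraries. Between 58 genes in library 1 and 419 in library 3 had no read. No read allows up to 3 reads, which is 2.63, 3.99, 3.70 and 2.90 normalized counts, for counting error only. A mean of at least 1 CPM was reached by 12156 genes, of at least 100 CPM by 2208 and of at least 1000 CPM by 98, where CPM is counts scaled to an equal library total of 1000000 reads on listed genes. A long transcript gives more reads than a short one at the same number of molecules, so the order below is one of reads, and levels of different genes are not compared.

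The libraries stood apart from one another for sets of genes, and these differences run through all that follows. A gene was counted as varying 4-fold when its highest library had at least 4 times its lowest after 1 was added to both, among the 9442 genes with a mean of at least 100. By this rule 867 genes varied, which is 9.18%, and 413 (4.37%) varied 8-fold. The median standard deviation (SD) of log2(value + 1) over the 4 libraries was 0.33, and the median ratio of highest to lowest was 1.67. Of the 867 genes, 268 were highest in library 1, 124 in library 2, 164 in library 3 and 311 in library 4, and library 4's share was 35.9%, or 26.04% when values were scaled as CPM. Library 4 was also the lowest for 305 and library 3 for 294. Over all 9442 genes, 30.4%, 14.9%, 23.9% and 30.8% were highest and 32.4%, 14.7%, 26.7% and 26.2% lowest in libraries 1, 2, 3 and 4. With the mean taken over the libraries kept, the count of varying genes was 577 without library 1 and 474 without library 4. Genes with a mean of 10000 or more varied 4-fold in 30 of 142 cases (21.1%), against 7.53% of those between 1000 and 10000 and 9.60% of those between 100 and 1000. Libraries 1 and 2 had a Pearson r of 0.922 across the 9442 genes on the log2 scale, a Spearman rho of 0.9204 and 129 genes that differed 4-fold. Libraries 2 and 3 had an r of 0.871, a rho of 0.9284 and 241 such genes, and libraries 3 and 4 had 426. Libraries 1 and 4 had the lowest r of the pairs, 0.783, and 487 such genes. Genes are not independent of one another, and these values describe the libraries without a test.

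The labelled cell type was checked against its defining genes, and the check was mixed. Brachyury (T), Krt19 and Acan, which mark nucleus pulposus cells or encode their main proteoglycan, are not analysed here because the table has no row with those symbols. Col2a1, the type II collagen gene, had 8.76, 2.66, 1.23 and 0 normalized counts, which is at or near the value of 3 reads in 3 of the libraries. Sox9, the regulator of cartilage genes, had 14.0, 29.2, 22.2 and 0, and Krt18 had 0, 0, 13.6 and 17.4. None of the 3 defining genes went above 30 normalized counts in any control library. Foxf1, a transcription factor of the disc core, was read in every library at 170.0, 262, 191 and 154 normalized counts. Krt8, a keratin of notochordal cells, had 158, 77.1, 865 and 186 and was highest in library 3, while the surface marker Cd24 had 94.6, 498, 7.39 and 40.6 and was highest in library 2. Pax1, a factor of the sclerotome from which the spine forms, had 69.2, 223, 132 and 31.9 normalized counts and was lowest in library 4. Vim, the vimentin gene that all mesenchymal cells use, had 22789, 14434, 18029.5 and 14338. The list of nucleus pulposus markers had rows for 18 of 21 members, and 9 of the 14 with a mean of at least 100 varied 4-fold, against 9.18% of all genes. Its summed level was 4069.7, 2842, 2928 and 1508 CPM, with both vimentin and the muscle-expressed Car3, given next, included. Carbonic anhydrase genes from this list went separate ways: Car12 had 13.1, 6.64, 1.23 and 1.93 normalized counts, and Car3, which skeletal muscle also makes, had 11125, 4569, 132 and 186.

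Genes of cartilage and fibrous matrix showed the same mixture. Hapln1, which links proteoglycans to hyaluronan, had 81.5, 639, 232 and 201 normalized counts and was highest in library 2. Col11a1, a fibrillar collagen gene of cartilage, had 6348, 10531, 4885 and 3180.0, and Sox5, a partner of Sox9, had 70.1, 231, 274 and 343. Comp, a cartilage glycoprotein gene, had 45.6, 33.2, 64.1 and 4.83, with the low value in library 4. Vcan, which encodes the large proteoglycan versican, had 12313, 15636, 18229 and 33365 normalized counts, and Bgn, encoding the small proteoglycan biglycan, had 5593, 12338, 8463 and 10348. Both were lowest in library 1. Col1a1, the main collagen gene of annulus fibrosus and fibroblasts, had 7019.8, 23595, 4196 and 18109.8, and Col3a1, a fibroblast collagen gene, had 8713, 19108, 2086 and 3346. For both collagens library 3 was the lowest and library 2 the highest. The fibroblast surface gene Thy1 had 2926, 2854, 1582 and 3860.2, and Pdgfra, a growth factor receptor of mesenchymal cells, had 1373, 4363, 9620.4 and 5734. Of the fibrous matrix and fibroblast list, 18 of 22 members with a row had at least 100 CPM, against 16.2% of all 13613 listed genes.

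Markers of other cell types differed by type, and those of skeletal muscle are described below. Of 20 leukocyte markers 7 had a row, and 1 of the 7 had a mean of at least 100, against 9442 of the 13613 listed genes. It was the endotoxin co-receptor Cd14, at 311, 529, 506 and 434 normalized counts. Macrophage genes were uneven, with 213, 19.9, 51.8 and 75.4 for Cd68 and 214, 46.5, 37.0 and 1.93 for the receptor gene Csf1r, both highest in library 1. The leukocyte list summed to 81.7, 55.03, 51.0 and 40.5 CPM. Pecam1, the endothelial adhesion gene, had 17.5, 2.66, 0 and 0.966 normalized counts, and the endothelial list summed to 28.7, 20.0, 28.2 and 31.3 CPM. None of the 9 blood cell genes had a row, and neither Ptprc nor Acta2, markers of leukocytes and of smooth muscle, is analysed here. Tagln, an actin-binding gene of contractile cells, had 16216, 10709, 5209 and 4515, and Cnn1, the calponin gene of smooth muscle, had 132, 214, 131 and 22.2. Library 4 held the lowest value of each. All 11 genes of the smooth muscle and contractile list with a row had a mean of at least 100, against 9442 of the 13613 listed genes. Of 7 adipocyte markers 5 had a row, and 4 of these had a mean below 100. Adipoq and Plin1 had no row. The remaining marker, the lipoprotein lipase gene Lpl, had 4785, 1289, 8.63 and 1589.5 and was lowest in library 3.

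The 10 genes with the highest mean took 6.57% ± 1.70 of the reads (SD, n = 4; lowest 4.33%, highest 8.25%), the first 100 genes took 22.3% ± 3.30 and the first 1000 took 54.9% ± 2.88. The 30 genes with most reads ran from Thbs2, with a mean of 159617 normalized counts, to Ccl7, with 28976. Matrix and matricellular proteins, secreted immune proteins, proteases and folding factors of the endoplasmic reticulum made up most of the 30. In 11 of the 30 the libraries differed 4-fold, which is a larger share than the 9.18% of all genes and the 21.1% of genes with a mean of 10000 or more. Library 4 was the highest for 14 of the 30, library 2 for 9, library 3 for 6 and library 1 for 1. With median in place of mean 26 of these genes stayed among the first 30, and with libraries 3 and 4 alone 26 did.

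**Figure D1:**
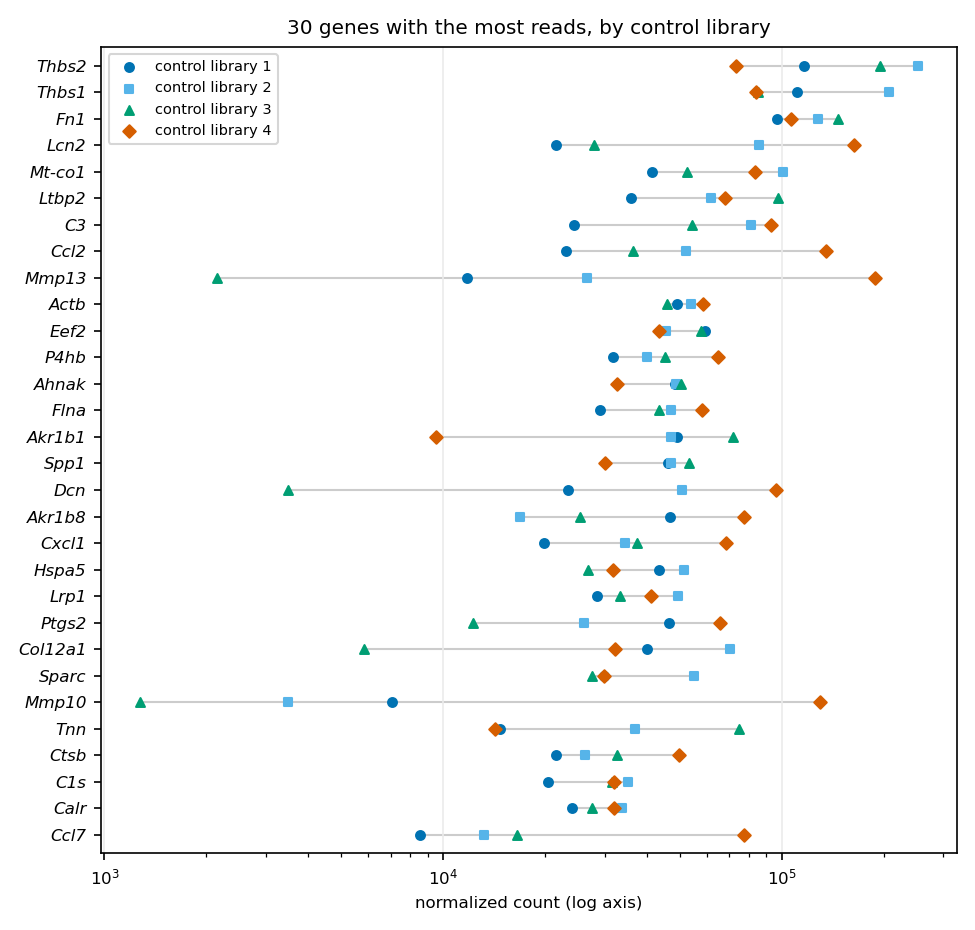
Normalized counts (log axis) of the 30 genes with the highest mean, in order of that mean from the top, with a point for each of the 4 control libraries and a grey line over their range. Points of Thbs2, Fn1, Actb and Eef2 lie within a factor of 4, while Mmp13 and Mmp10 spread over 87.8-fold and 102-fold ranges, with library 4 on the right.

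Matrix genes headed the order. Thbs2, which encodes the matricellular protein thrombospondin 2, had 116580, 252854, 195535 and 73500.2 normalized counts, and Thbs1, its relative that activates latent TGF-beta, had 111175, 207170, 84894 and 83806. Library 2 was the highest for both, and library 4 the lowest. Fn1, the fibronectin gene, had 96716, 127940, 146358 and 106688 and varied by a ratio of highest to lowest of 1.51, with no 1 added here or in the ratios of single genes below. Ltbp2, a microfibril-associated protein of the latent TGF-beta binding family, had 35807, 61766, 97726 and 67819.5, and Tnn, the tenascin N (tenascin W) gene, had 14738, 36839.7, 74844 and 14259. For both of these library 3 was the highest. Sparc, a collagen-binding matricellular protein gene, had 29929, 54978, 27484 and 29776, and Spp1, the osteopontin gene, had 46249, 47044, 53089 and 30073. Sparc lay close together in libraries 1, 3 and 4 with library 2 above them, and Spp1 was lowest in library 4. Dcn, which encodes the small collagen-binding proteoglycan decorin, had 23455, 50928, 3481 and 96029, a 27.6-fold range. Col12a1, the gene of a collagen that lies along type I fibrils, had 40009, 70493, 5853 and 32187, a 12.0-fold range. Library 3 was far below the others for both. In the library of Set 3 in the ShTon_NaCl group, Dcn and Col12a1 were the lowest as well, with Dcn at 26842, 56088, 1616 and 101647 and Col12a1 at 55786, 104823, 4733 and 42639.8 in ShTon_NaCl libraries 1 to 4.

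Secreted immune proteins came next. Lcn2, encoding the iron-siderophore binding protein lipocalin 2, had 21517, 85496, 27909 and 164020 normalized counts, C3, the central complement gene, had 24321, 81139, 54265 and 92716, and C1s, the serine protease of the first complement complex, had 20365, 35075, 31614 and 32071. C1s varied least of these, by a ratio of 1.72. The chemokine genes Ccl2 and Ccl7, whose products attract monocytes, had 23062, 52217, 36369.5 and 134860 for Ccl2 and 8567, 13174, 16562 and 77601 for Ccl7, and Cxcl1, whose product attracts neutrophils, had 19901, 34524, 37398 and 68432. All 3 were highest in library 4 and lowest in library 1. Ptgs2, the inducible enzyme of prostaglandin synthesis, had 46328, 26121, 12246 and 65961. Every library thus held at least 8567 normalized counts of each of these 4 genes. Of 28 inflammatory mediators with a row, 15 had at least 100 CPM, against 16.2% of all 13613 listed genes. Il6 had 946, 636, 1405 and 1080.3 normalized counts, while Tnf and Il1b, encoding upstream cytokines, were read at 1.75, 0, 8.63 and 12.6 for Tnf and 11.4, 3.99, 8.63 and 113 for Il1b.

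Folding, structural and housekeeping genes among the 30 stayed under a 4-fold range. P4hb, a disulfide isomerase that is also a subunit of collagen prolyl hydroxylase, had 31819, 40131, 45239 and 64745 normalized counts, Hspa5, the chief chaperone of the endoplasmic reticulum, had 43341, 51635, 26853 and 31669.5, and the lectin chaperone gene Calr had 24018, 33665, 27608 and 32031. Their ratios of highest to lowest ran from 1.40 for Calr to 2.03 for P4hb. Actb, Flna and Ahnak, genes of the actin cytoskeleton and of a giant scaffold protein under the membrane, had 49032, 53795, 45875 and 58410.0 for Actb, 29143, 47136, 43289.9 and 58099 for Flna and 48279, 48855, 50361 and 32719 for Ahnak. The ratio was 1.27 for Actb, the smallest of the 30. Eef2, which moves the ribosome along the messenger, had 59395, 45649, 57952 and 43478, and the mitochondrial cytochrome oxidase gene Mt-co1 had 41350.2, 101217, 52701 and 83413. Lrp1, an endocytic receptor gene, had 28573, 49248, 33386 and 40981 and the lysosomal protease gene Ctsb had 21578, 26334, 32716 and 49597, with library 1 the lowest for both. The remaining proteases, Mmp13 and Mmp10, and the aldo-keto reductases, Akr1b1 and Akr1b8, are given with their groups.

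Library 4 was the lowest of the control libraries for most genes that make or import osmolytes. Akr1b1, the aldose reductase that makes sorbitol from glucose, had 49064, 47079, 71783 and 9554 normalized counts and ranked 15th of all genes by mean. Slc38a2, a sodium-coupled carrier of neutral amino acids, had 30769, 30843, 24069 and 8919, Slc6a6, the taurine carrier, had 3321, 3793, 4285 and 1110.2, and Slc12a2, the sodium, potassium and chloride cotransporter, had 4121, 6752, 3587 and 2386. Library 4 was the lowest of the 4 for each. Hspa4l, a chaperone known from mouse kidney cells to be induced by hypertonic medium, had 2868, 4742, 1951 and 298, and the water channel gene Aqp1 had 265, 263, 4472 and 48.3, highest in library 3. The betaine carrier gene Slc6a12 had 22.8, 147, 24.6 and 0.966 normalized counts, the last of them below the value of 3 reads. Slc5a3, the myo-inositol carrier, is not analysed here. Nfat5, which encodes TonEBP itself, had 1682, 2332, 1677 and 942, a ratio of 2.48. Of the 13 osmoprotection genes with a row, 11 were lowest in library 4, against 26.2% of the 9442 genes, and 4 of the 10 with a mean of at least 100 varied 4-fold, against 9.18%. The list summed to 7942, 8011, 9767 and 1835 CPM. Without library 4 its sums therefore lay between 7942 and 9767 CPM.

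Genes of volume regulation and of the sodium pump held both level and variable members. Atp1b3, a beta subunit of the sodium pump, had 6913, 7203, 6764 and 5959 normalized counts, with a ratio of highest to lowest of 1.21. Wnk1, a kinase that controls chloride cotransporters, had 6335, 3873, 3894 and 3865: libraries 2, 3 and 4 were nearly level and library 1 stood above. The chloride intracellular channel gene Clic1 had 1501, 2182, 1986 and 4758, highest in library 4. Atp1b1, the other common beta subunit, had 599, 1216, 3049.9 and 121, with library 3 the highest and library 4 the lowest. Of 18 members with a mean of at least 100, 4 varied 4-fold, against 9.18% of all genes. In sum the list held 3662, 4050.4, 4387 and 3724 CPM.

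Among the genes with the largest spread over the control libraries, skeletal muscle genes filled most places, high in libraries 1 and 2 and at or near 0 in libraries 3 and 4. Ranked by the SD of log2(value + 1) among genes with a mean of at least 100, the first 25 ran from Myh3 (SD 6.87) to Slc25a48 (4.39), and DMD was next (4.38). In 22 of the 25 both of libraries 1 and 2 were above both of libraries 3 and 4. These ranks are a description, since the spread chose the genes. Myh3, the myosin heavy chain of embryonic muscle, had 26571, 10133, 0 and 51.2 normalized counts. The actin genes of striated muscle followed it, with 13442, 4949, 3.70 and 18.4 for Actc1, the form of heart and developing muscle, and 24495, 6446, 66.5 and 53.1 for Acta1, the skeletal form. Myog, the transcription factor that drives myoblasts to differentiate, had 3118, 1815, 1.23 and 4.83, and Myod1, the factor that commits cells to muscle, had 1274, 279, 16.02 and 0.966. In every one of these genes library 1 was above library 2, and both were far above libraries 3 and 4.

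The contractile and signalling parts of the muscle cell kept libraries 1 and 2 on top, and Mybph was the one of them named here that was higher in library 2 than in library 1. The myosin light chain genes Mylpf and Myl1 had 10189, 3473, 3.70 and 26.1 for Mylpf and 3330.3, 969, 0 and 5.80 for Myl1 normalized counts. Troponins, which make the thin filament respond to calcium, were represented by Tnni2, Tnnc2, Tnnt2, Tnnc1 and Tnni1. Tnni2, the fast inhibitory subunit, had 1298, 409, 0 and 0, and Tnni1, the slow one, had 1807, 747, 4.93 and 3.87. Actn2, the actinin of the Z disc, had 1693, 628, 0 and 2.90, Lmod3, which nucleates thin filaments, had 349, 144, 0 and 0, and the thick filament proteins Mybph and Myom2 had 391, 428, 0 and 2.90 for Mybph and 407, 199, 0 and 0.966 for Myom2. Atp2a1, the calcium pump of fast muscle, had 1143, 274, 0 and 5.80, and Srl, a calcium-binding protein of the sarcoplasmic reticulum, had 1754, 937, 19.7 and 1.93. Tmem8c (myomaker), the membrane protein that fuses myoblasts, had 338, 113, 0 and 0. Chrng, the acetylcholine receptor subunit of fetal muscle, had 711, 79.7, 0 and 0, and Chrne, the subunit that replaces it in the adult, had 55.2, 37.2, 8.63 and 0.966. Myosin heavy chain genes of later or slow fibres had few reads, 27.2, 3.99, 0 and 0 for Myh1, 2.63, 0, 0 and 0 for Myh2, 2.63, 0, 0 and 0 for Myh8 and 92.0, 3.99, 0 and 0 for Myh7. Ckm, the muscle creatine kinase of mature fibres, had 92.9, 54.5, 0 and 0.

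**Figure D2:**
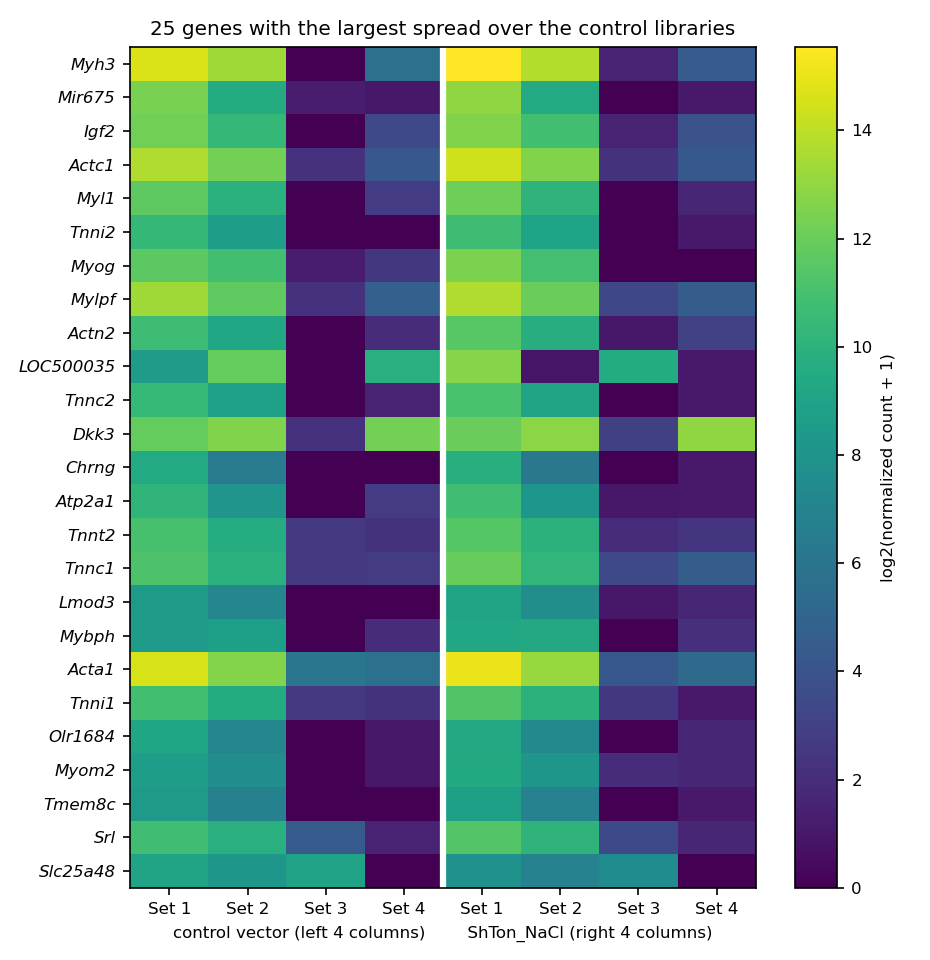
Colour shows log2(normalized count + 1) of the 25 genes with the largest spread over the control libraries (rows, largest spread at the top) in the control libraries of Sets 1 to 4 (left 4 columns) and in the ShTon_NaCl libraries of Sets 1 to 4 (right 4 columns). Sets 1 and 2 are bright and Sets 3 and 4 dark for 22 of the 25 genes in the control libraries, and for 22 in the ShTon_NaCl libraries.

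A list of skeletal muscle markers, of which 7 of 8 had a row, took 0.478%, 0.154%, 0.000993% and 0.000855% of the reads of control libraries 1, 2, 3 and 4. All 7 were higher in both of libraries 1 and 2 than in libraries 3 and 4, and Pax7, a satellite cell factor, is not analysed here. A wider set of muscle genes, 50 with a row, was put together after these values had been seen, and took 0.977%, 0.331%, 0.0126% and 0.00496% of the reads. In 47 of the 50 genes libraries 1 and 2 were above libraries 3 and 4, and in the ShTon_NaCl libraries this held for 48. Since the values chose the wider set, these counts describe it only. The share of all genes with this order was not counted. In such bulk RNA, fewer muscle cells and less muscle RNA per cell cannot be told apart. The part that muscle RNA plays in other differences between libraries 1 or 2 and the rest was not tested. None of the 10 most read genes was in the muscle lists, so leaving these lists out could only lower the total of reads. The share of the 10 genes moved from 6.57% to 6.59%, which says nothing about other effects of muscle RNA. With any 1 library left out, 27 to 30 of the 30 most read genes were kept.

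Imprinted growth genes followed the same order. Igf2, an insulin-like growth factor expressed from the paternal copy in fetal tissue, had 4839, 1292, 0 and 9.66 normalized counts, and the row of microRNA 675 (Mir675) had 5499.6, 740.1, 1.23 and 0.966. In rodents this microRNA is cut from the H19 transcript next to Igf2, so reads on its row may be those of the longer transcript, which is not analysed here. The ShTon_NaCl libraries had 6133, 1836, 1.93 and 15.0 for Igf2 and 7859, 716, 0 and 1.07 for Mir675. The 84-base hairpin lies at chr1:207161752-207161835 on the minus strand of GRCr8, from RefSeq, and the mature strands are given here with the seed (bases 2 to 8) in capitals, since the row is the only microRNA among the 25.
rno-miR-675-5p: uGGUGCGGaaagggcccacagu
rno-miR-675-3p: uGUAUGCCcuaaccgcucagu
Their seeds differ from each other. Igfbp5, a binding protein of the same growth factors that muscle and fibroblasts secrete, had 7883, 3516, 65.3 and 101, also with libraries 1 and 2 on top.

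Promoters of the muscle genes were searched for the E-box CAGCTG, the letters that myogenic factors such as Myod1 and Myog are known to bind, which read the same on both strands. Of 50 muscle genes 39 matched a RefSeq promoter of GRCr8 (250 bases before to 50 after the start), and 17 of their 42 windows held it (40.5%), against 15.1% of all 33469 windows. For the 25 genes of largest spread it was 5 of 20 windows, from 15 matched genes. All windows also cover genes that are not listed here, so these shares rest on unlike sets of genes. A match is a run of letters and not a shown site. The promoters of Chrng and Acta1, printed 5′ to 3′ with the E-boxes in capitals, show a pair near the start and a single distant copy. Chrng lies at chr9:95325734-95326033 on the plus strand and Acta1 at chr19:68784145-68784444 on the minus strand.
Chrng: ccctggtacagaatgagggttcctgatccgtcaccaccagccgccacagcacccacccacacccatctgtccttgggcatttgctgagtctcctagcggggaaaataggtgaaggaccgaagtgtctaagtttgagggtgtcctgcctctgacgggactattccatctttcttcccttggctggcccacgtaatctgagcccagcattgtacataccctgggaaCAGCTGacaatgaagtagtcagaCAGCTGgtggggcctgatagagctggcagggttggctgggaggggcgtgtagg
Acta1: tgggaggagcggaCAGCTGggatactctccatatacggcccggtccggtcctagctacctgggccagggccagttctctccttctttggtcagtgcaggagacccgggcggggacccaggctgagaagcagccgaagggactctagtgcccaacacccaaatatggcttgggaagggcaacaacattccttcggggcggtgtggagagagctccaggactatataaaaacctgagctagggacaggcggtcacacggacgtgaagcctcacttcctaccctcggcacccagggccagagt
The E-boxes of Chrng begin 26 and 3 bases before the start, and that of Acta1 begins 237 bases before it. In the RefSeq window of Myog itself there was none.

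A few of the 25 genes departed from the muscle pattern. Dkk3, which encodes a secreted protein of the Dickkopf family, had 3672, 6311, 3.70 and 5047 normalized counts, with library 3 alone at the level of 3 reads. In the ShTon_NaCl libraries Dkk3 had 4060.2, 7338, 6.77 and 7949, so the gap at Set 3 was seen in both groups. Slc25a48, a mitochondrial carrier family member, had 536, 292, 502 and 0 and no read in library 4, and 251, 118, 184 and 0 in the ShTon_NaCl libraries. LOC500035, for which no function is annotated, had 369, 3687, 0 and 924, and in the ShTon_NaCl libraries it had 6679, 0.811, 755 and 1.07: the Sets that held it differed between the groups. The olfactory receptor gene Olr1684 had 550.2, 136, 0 and 0.966, with the order of the muscle genes.

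Gaps of 4-fold between neighbouring libraries, once the 4 values of a gene were put in order, were used to sort the genes further. A gene can hold more than 1 such gap. Libraries 1 and 2 stood above 3 and 4 in 75 genes (0.79% of the 9442), while the reverse was seen in 7 (0.07%). Of the 75, 34 belonged to the wider muscle set, which had 39 genes with a mean of at least 100. That set was chosen after the values were seen. The same gap was found in the ShTon_NaCl libraries, matched by Set number only, for 65 of the 75 (86.7%). Library 1 alone was high in 41 genes, 34 of which repeated in ShTon_NaCl, and library 3 alone was low in 67, of which 50 repeated. Library 4 alone was high in 74 and low in 84, and of these 12 and 19 repeated. Library 3 alone was high in 25, of which 8 repeated. At most 12 genes fell under each of the remaining patterns, such as library 2 alone high with 4. Measured by the highest library, 71.2% of the 867 genes had their highest value in the same Set of the ShTon_NaCl libraries, against 52.4% of all 9442 genes. This share was 87.3% for genes highest in control library 1, 76.2% for library 4, 51.6% for library 2 and 50% for library 3.

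**Figure D3:**
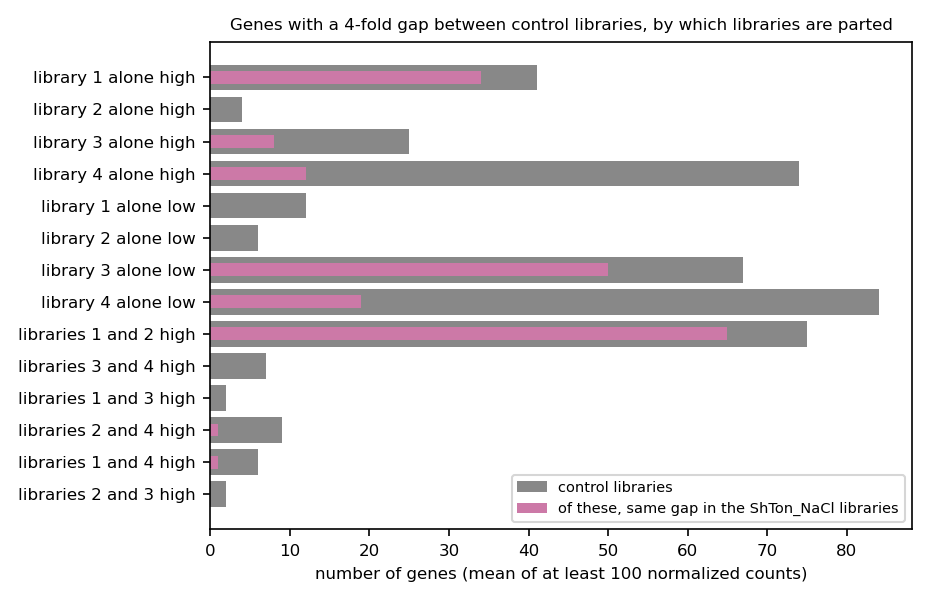
Grey bars give the number of genes, among those with a mean of at least 100 normalized counts, in which a 4-fold gap parts the named control libraries from the others, and the narrow pink bars give how many of them have the same gap in the ShTon_NaCl libraries. The 75 genes high in libraries 1 and 2 repeat in 65 cases, while the 74 high in library 4 alone repeat in 12.

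Library 4 carried the highest values of most inflammatory and proteolytic genes. Mmp13, the collagenase of hypertrophic cartilage and of degrading matrix, had 11785, 26541, 2147 and 188423 normalized counts, and Mmp10, a stromelysin, had 7083, 3494, 1274 and 129407. Mmp9, a gelatinase, had 165, 82.4, 145 and 11337 and Timp3, a matrix-bound inhibitor of these enzymes, had 1799.6, 3564, 859 and 15362. Mmp12, the macrophage elastase, had 38.6, 2.66, 1.23 and 1274, the largest SD of the protease list. Library 4 was above the others for each. In the protease and inhibitor list 10 of 22 members varied 4-fold (45.5%), against 9.18% of all genes. All 10 were highest in library 4, against 35.9% of the 867 varying genes. The list summed to 10030.3, 11720.5, 8105 and 38694 CPM. In contrast Mmp14, Timp2 and Adamts4, a membrane collagenase, an inhibitor and an aggrecan-cleaving enzyme, had 3345, 5441, 4048 and 7348 for Mmp14, 7841, 11254, 9641 and 13499 for Timp2 and 132, 173, 160.2 and 119 for Adamts4, all within a ratio of 2.20. Mmp3 is not analysed here.

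Chemokine and cytokine genes behaved alike. Cxcl2, which encodes a neutrophil chemokine, had 1529.8, 1547, 1073 and 40469 normalized counts: libraries 1, 2 and 3 lay between 1073 and 1547 and library 4 at 40469. Csf3, the granulocyte growth factor gene, had 1033, 621, 412 and 14045, Cxcl3 had 981, 666, 1198 and 15309.6, and Lif, encoding a cytokine of the interleukin 6 family, had 176, 139.5, 209 and 3006. Ptges, the prostaglandin E synthase that works with Ptgs2, had 2082, 1147, 1268 and 33085, and Nos2, the inducible nitric oxide synthase, had 22.8, 50.5, 175 and 1469.7. In all of them library 4 was the highest. Of 20 inflammatory mediators with a mean of at least 100, 14 varied 4-fold (70%), against 9.18% of all genes. Of these 14, 13 were highest in library 4, against 35.9% of the 867 varying genes, and the list summed to 11533, 13155, 10891 and 37351 CPM. The other of the 14 was Il33, an alarmin of the interleukin 1 family, at 11872, 3289.9, 61.6 and 809, which was highest in library 1. Cxcl10, an interferon-induced chemokine gene, had 578, 453, 368 and 545, and Il6, with the values given above, was not highest in library 4 either. Genes that NF-kB induces and that in turn restrain or transmit it, a list made after these values were seen, were highest in library 4 in 8 of 8 cases, against 30.8% of the 9442 genes, and 7 of the 8 varied 4-fold, against 9.18%. Since the values chose that list, the counts describe it only. Tnfaip3 (A20) had 264, 175, 552 and 2739 and Nfkbia, the inhibitor of NF-kB, had 1270.4, 1883, 3906 and 8945, while Nfkb1 had 3291, 3257, 3259 and 7199.7, with libraries 1 to 3 nearly level. In the Set 4 library of the ShTon_NaCl group Cxcl2 was not the highest, at 825, 396, 63.8 and 581. That is 1 gene: of the 311 varying genes highest in control library 4, 237 (76.2%) were highest in that library too. Of the 74 genes high in control library 4 alone, 12 kept the 4-fold gap there.

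Genes of glutathione and quinone metabolism moved with them in part. Slc7a11, the cystine carrier that feeds glutathione synthesis, had 3426, 899.5, 30.8 and 38909.7 normalized counts, lowest in library 3 and highest in library 4. Nqo1, a quinone reductase, had 11412, 2482, 16286 and 66427 and Txnrd1, thioredoxin reductase, had 8302, 3294, 2469 and 22136, both highest in library 4. Akr1b8, a relative of aldose reductase that reduces lipid aldehydes, had 46851, 16876, 25325 and 77382, again highest in library 4. Hmox1 and Gclc, the haem oxygenase and the first enzyme of glutathione synthesis, had 3896, 2070.1, 765 and 908 for Hmox1 and 5998, 1487, 1597 and 1761 for Gclc and were highest in library 1. Of 16 antioxidant genes 8 varied 4-fold, against 9.18% of all genes. Of these 8, 6 were highest in library 4, against 35.9% of the 867 varying genes. Slc20a1, a phosphate carrier gene, had 7761, 7931, 5205 and 47852, and Ibsp, the bone sialoprotein gene, had 11.4, 10.6, 12.3 and 496. Serpine2, which encodes an inhibitor of serine proteases, had 8340.1, 10917, 11312 and 44056, and in each of these 3 genes library 4 was the highest.

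**Figure D4:**
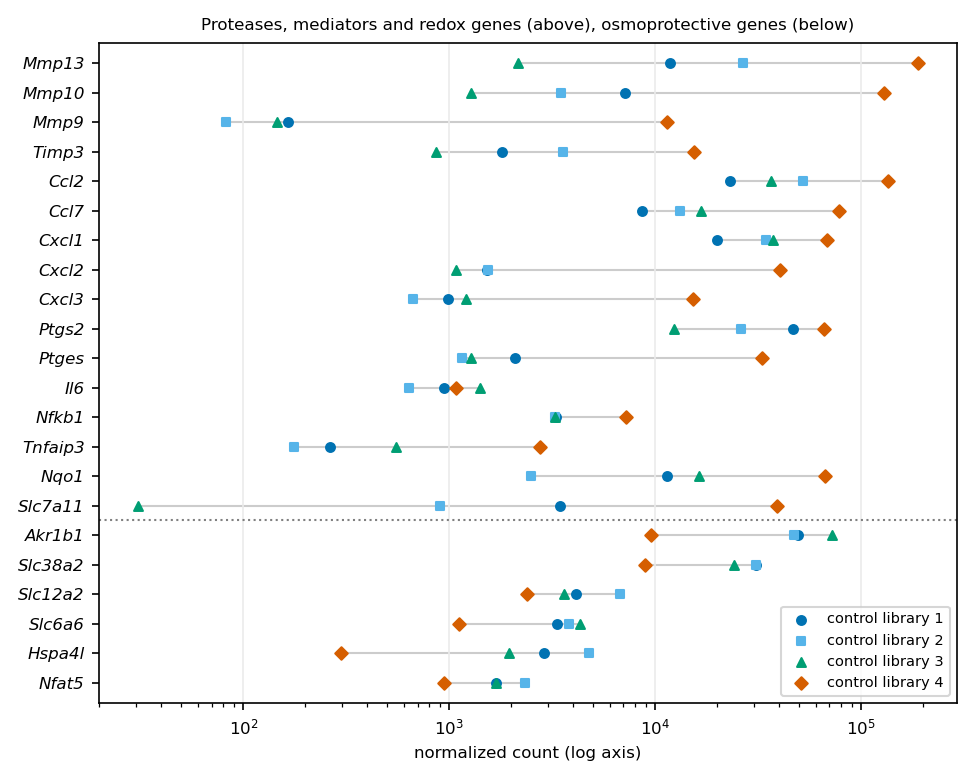
Normalized counts (log axis) in the 4 control libraries for proteases, inflammatory mediators, NF-kB genes and redox genes (above the dotted line) and for osmoprotective genes (below it), with grey lines over their range. Library 4 (orange diamonds) is the highest for all genes above the line except Il6 and the lowest for all genes below it. The genes shown are a selection, made in part after their values were seen. Others of these groups that are not shown, such as Hmox1, Gclc, Il33, Cxcl10 and Adamts4, were not highest in library 4.

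Library 4 alone was low in another set of genes. Besides Akr1b1, Hspa4l and Aqp1, that set held Fhl1, a LIM domain gene of muscle and fibroblasts, with 4277, 3340.4, 2789.9 and 436 normalized counts, and Col6a3, a chain of collagen VI, with 3313, 3023, 1811 and 333. The other chains of that collagen did not follow it: Col6a1 had 4511, 5262, 5694 and 7499 and Col6a2 had 4888, 6497, 6323 and 9020.1. Vegfa, the angiogenic factor, had 10485, 5268, 4004 and 1287 and Car9, a carbonic anhydrase induced by low oxygen, had 2404, 4129.6, 6354 and 1511, both lowest in library 4. Immediate early genes were split, since Fos had 206, 179, 384 and 22.2 with library 4 the lowest, and Junb had 944, 856, 1683 and 4302 with library 4 the highest.

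Promoters of the 74 genes high in library 4 alone were searched on both strands for the AP-1 letters TGANTCA and the NF-kB letters (GGG, any pair of letters, then TTTCC, or their reverse complement), each counted on its own whether or not it overlapped another. RefSeq matched 51 of the genes, with 52 windows, and 9 windows held the AP-1 letters (17.3%), against 7.33% of all windows. The NF-kB letters stood in 5 of 52 (9.62%), against 1.53%. All windows also cover genes that could not enter the set, so these shares rest on unlike sets of genes. Binding was not measured, and the windows describe letters only. Mmp13 and Mmp10, both on chromosome 8, carry 1 AP-1 match each, and Cxcl2 and Tnfaip3 carry 2 NF-kB matches each, and these matches are printed in capitals. The Tnfaip3 window also holds 1 AP-1 match, which begins 181 bases before the start and is left in lower case. The windows lie at chr8:12782579-12782878 (plus strand), chr8:12974457-12974756 (plus), chr14:17467206-17467505 (minus) and chr1:15543930-15544229 (minus).
Mmp13: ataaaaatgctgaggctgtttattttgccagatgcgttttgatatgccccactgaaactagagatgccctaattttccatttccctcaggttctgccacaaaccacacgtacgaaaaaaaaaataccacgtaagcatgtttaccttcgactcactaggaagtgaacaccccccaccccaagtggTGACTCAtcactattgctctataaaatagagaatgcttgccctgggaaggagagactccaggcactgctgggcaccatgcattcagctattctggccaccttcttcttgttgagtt
Mmp10: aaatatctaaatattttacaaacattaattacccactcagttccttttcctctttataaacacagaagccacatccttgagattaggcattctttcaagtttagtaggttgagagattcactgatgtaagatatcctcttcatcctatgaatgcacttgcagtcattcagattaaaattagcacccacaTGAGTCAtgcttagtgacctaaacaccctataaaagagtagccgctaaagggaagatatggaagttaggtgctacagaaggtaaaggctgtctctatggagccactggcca
Cxcl2: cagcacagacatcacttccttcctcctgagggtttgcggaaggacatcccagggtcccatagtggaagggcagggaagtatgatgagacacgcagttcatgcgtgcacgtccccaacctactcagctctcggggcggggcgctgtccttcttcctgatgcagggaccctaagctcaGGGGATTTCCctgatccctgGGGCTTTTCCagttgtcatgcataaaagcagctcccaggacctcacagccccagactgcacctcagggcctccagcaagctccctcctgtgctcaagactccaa
Tnfaip3: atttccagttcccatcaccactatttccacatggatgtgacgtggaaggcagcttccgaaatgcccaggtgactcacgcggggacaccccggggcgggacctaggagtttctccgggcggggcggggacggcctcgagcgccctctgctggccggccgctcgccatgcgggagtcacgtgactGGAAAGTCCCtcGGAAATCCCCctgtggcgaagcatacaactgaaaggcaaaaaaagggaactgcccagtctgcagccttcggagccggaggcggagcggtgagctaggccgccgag
The AP-1 letters begin 66 bases before the start of Mmp13 and 61 before that of Mmp10. The NF-kB letters begin 74 and 54 bases before the start of Cxcl2, and 67 and 55 before that of Tnfaip3.

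Single genes stood high or low in library 3. Wfdc18, encoding a secreted WAP domain protein, had 1615, 1388, 14230.3 and 2231 normalized counts, and Msln, the mesothelin gene, had 520.4, 729, 4085 and 334. Krt7, a simple epithelial keratin, had 25.4, 43.8, 1317 and 78.3, and Krt8, given above, was highest there too, while Krt18 was highest in library 4. Adamts15 and Pcsk6, a proteoglycan-cleaving protease and a proprotein convertase, had 72.7, 114, 1378 and 48.3 for Adamts15 and 131, 363, 1887 and 145 for Pcsk6. All were highest in library 3. In the ShTon_NaCl group Msln had 599, 852, 3743 and 486 and Krt7 had 15.7, 87.6, 1524 and 69.7, highest in Set 3 again. Epcam, a marker of epithelium, had 112, 21.3, 25.9 and 2.90 and was highest in library 1, and Cldn4, a tight junction gene, had 28.9, 0, 2.46 and 0. On the low side, Lum, the lumican gene, had 13113, 13525, 2187 and 13953, with the other 3 libraries nearly level. Bmp2 and Gdf6, bone morphogenetic proteins, had 871, 395, 75.2 and 1529 for Bmp2 and 381, 207, 33.3 and 798 for Gdf6.

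Secreted growth factors and their binding proteins varied in 13 of 25 cases (52%), against 9.18% of all genes, and the highest library was not the same for all. Pappa, the protease that cleaves binding proteins of insulin-like growth factors, had 3484, 2790.3, 318 and 1852 normalized counts. Igfbp7 had 9046, 16700.5, 13182 and 16768, Igfbp4 had 439, 258, 1018 and 24.2 and Igfbp3 had 9.64, 37.2, 49.3 and 423. Igfbp7 was nearly level in libraries 2 and 4, Igfbp4 was highest in library 3 and lowest in library 4, and Igfbp3 was highest in library 4. Grem1, a secreted antagonist of bone morphogenetic proteins, had 9230.3, 30781, 24669 and 29881, and Ctgf, a matricellular factor, had 11254, 8492, 7882 and 4297. Both were at or above 4297 in every library. Complement and acute phase genes varied in 5 of 9 cases, against 9.18% of all genes. C3, C1s and C1r, another protease of the first complement complex with 17840.3, 22759, 21942 and 15588, varied less than 4-fold, while Hp, encoding haptoglobin, had 1194, 6881, 19301 and 10014.

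Integrins and matrix receptors varied in 5 of 18 cases (27.8%), against 9.18% of all genes. Itgb1, the common beta chain of collagen and fibronectin receptors, had 26009, 30546, 19092 and 32586 normalized counts, and Itgb5 had 7075, 11970.3, 12829 and 9578. The hyaluronan receptor gene Cd44 had 18053, 13744, 10868 and 29900.2, and the heparan sulphate proteoglycan gene Sdc4 had 6816, 9237, 14747 and 15522. These 4 stayed within a ratio of 2.75. Itga2, a collagen-binding alpha chain, had 139, 29.2, 11.1 and 669.6 with library 4 the highest, and Itga7, the laminin-binding alpha chain known from muscle, had 16282, 3641, 1566 and 4439 with library 1 the highest.

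The genes of smallest spread were nearly level. Among genes with a mean of at least 1000, Huwe1, a ubiquitin ligase, had the smallest spread, with 4498, 4498, 4521 and 4488 normalized counts and an SD of 0.0045 on the log2 scale. Next came Pip5k1a, a phosphoinositide kinase, with 1536, 1516, 1539 and 1549, RGD1311703 with 1668, 1628, 1623 and 1647, Agfg1, a trafficking protein gene, with 1159, 1163, 1167 and 1134, and Impa1, which frees myo-inositol from its phosphate, with 1377, 1347, 1372 and 1391. Gps1, a subunit of the COP9 signalosome, Phf14, a chromatin reader, Emc4 and Mesdc2, which aid membrane protein folding, and Copb2, a coat protein of transport vesicles, completed the 10. The SD of Mesdc2, the last of them, was 0.027 and that of the next gene, Ddx23, was 0.029. The ratio of highest to lowest, with 1 added to both, was at most 1.04 over the 10.

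**Figure D5:**
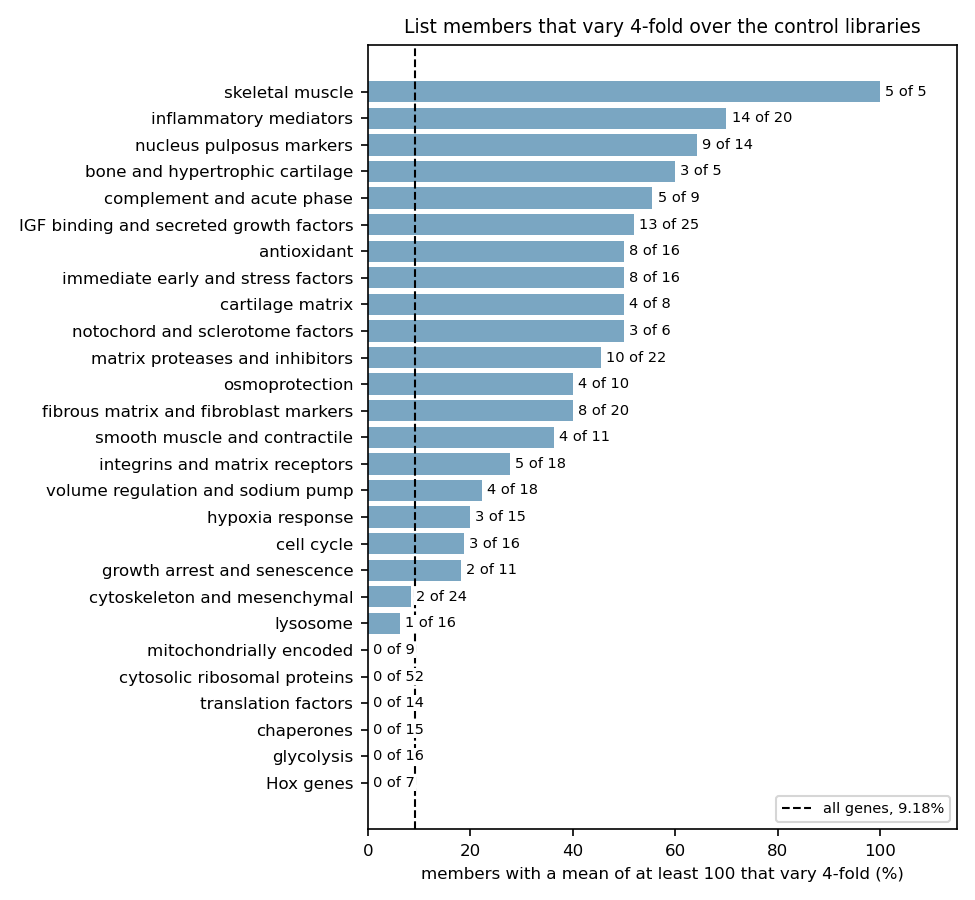
Bars give the percentage of members with a mean of at least 100 normalized counts whose highest control library had at least 4 times the lowest, for gene lists with at least 5 such members, leaving out the lists added after the values were seen, and the dashed line gives 9.18%, the percentage of all such genes. Skeletal muscle, inflammatory mediators and nucleus pulposus markers have the longest bars shown, and 6 lists, among them ribosomal proteins and glycolysis, stand at 0. The lists shown were chosen with earlier results of these data known.

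In 6 of the lists shown, no member varied 4-fold. They were cytosolic ribosomal proteins (52 members with a mean of at least 100), glycolysis (16), chaperones (15), translation factors (14), mitochondrially encoded genes (9) and Hox genes (7). A member that reached the mean through 1 library alone had to vary, so these shares describe which members passed and support nothing more. Ribosomal protein genes had a median SD of 0.27, with Rplp0 at 24443, 20455, 24906 and 20546, Rpl3 at 15529, 12728, 17194 and 13986 and Rpsa at 8109, 7172, 7758 and 7033 normalized counts. Ribosomal protein genes have near-identical pseudogene copies, so their reads are uncertain. The glycolytic enzyme genes Aldoa, Pgk1 and Gpi had 16220.3, 11188, 12948 and 14016 for Aldoa, 6439, 8174, 9724 and 7566 for Pgk1 and 6032, 4918, 5975 and 3557 for Gpi, and the list summed to 5024, 3995, 4804 and 3732 CPM. Ldha, which makes lactate, had 3131, 2451, 2309 and 1311 and was lowest in library 4. Hif1a, the oxygen-regulated factor on which disc cells rely, had 6389.8, 5309.5, 8551 and 5237. Of 11 mitochondrially encoded genes with a row, 9 were highest in library 2, against 14.9% of the 9442 genes, and the list summed to 3788, 9218, 5329 and 6766 CPM. Lysosomal genes varied in 1 of 16 cases, against 9.18% of all genes. Psap, the saposin precursor, had 22596, 23105, 27693 and 27805 and Lamp2, a lysosomal membrane protein, had 6241, 5996, 6493 and 6523.

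Hox genes, which record position along the body, had few reads. Of 39 members 21 had a row, with a median of 62.4 normalized counts, and the most read were Hoxd10 with 192, 359, 445 and 467, Hoxb7 with 185, 234, 359.8 and 296, Hoxd8 with 159, 139.5, 177 and 299.5 and Hoxd9 with 89.4, 198, 197 and 184. None of these 4 differed 4-fold. Hoxa3 was the only member of the A cluster with a row, at 1.75, 2.66, 6.16 and 2.90. Among notochord and sclerotome factors, Twist1 had 1351, 559, 707 and 506, Foxc1 had 453, 517, 899.6 and 340.1 and Pax9 had 357, 521, 727 and 144, with Pax9 lowest in library 4. The tendon factor Scx had 450.3, 526, 319 and 301. Noto, Shh and Foxa2 are not analysed here.

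Cell cycle genes were highest in library 3 in 17 of 22 cases, against 23.9% of the 9442 genes. Ccnd1, the cyclin that starts the cycle, had 13054, 7297, 4415 and 30964 normalized counts, and Pcna, the clamp of DNA polymerase, had 4936, 1581, 1489 and 1329. Top2a, the topoisomerase of dividing cells, had 223, 442, 1142 and 302, and Mki67, the proliferation marker, had 249.7, 379, 855 and 183. Ccnd1 was highest in library 4, Pcna in library 1, and Top2a and Mki67 in library 3. Of the 16 members with a mean of at least 100, 3 varied 4-fold (18.8%), against 9.18% of all genes. Cdkn1a, the p53-induced inhibitor p21, had 5901, 3743, 2376 and 6569.7, and Mdm2, the p53 ligase, had 5091, 3139.7, 2585 and 4444. Over the 34 lists that were not added later, 28.1% of members with a mean of at least 100 varied 4-fold, against 9.18% of all genes. With library 4 left out the share of list members was 15.9%, and the number of all genes that varied fell as well, from 867 to 474.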

How the data were processed

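Single-read RNA sequencing libraries of rat nucleus pulposus cells were made by the authors. Novoalign 2.08.01, DESeq2 1.10.1 and the rat build rn5 appear in the submitters' processing notes; their roles, the counter, the annotation and strand use are not stated in the sources used. The deposited signal is a normalized count per gene and library, the authors' reads divided by a factor for each library; all values came out as whole reads (tolerance 0.001), and 0 per-sample columns were left unused. The authors' deposited log2 fold changes and adjusted p-values were not used. With 1 group there was no test, so values are described by level, SD (n = 4) and ratio (python 3.11.15, numpy 2.4.6, pandas 2.3.3, matplotlib 3.10.9; R 4.3.3 and edgeR 4.0.16 for TMM and dispersion). The ranking code was run on simulated data with less spread than these libraries and with changes larger than 4-fold. That run checks the code and gives no support for the ranking. Since labels do not tell separate cultures, SDs may be technical.

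Genes named were the 30 with most reads, the 25 with the largest and 10 with the smallest spread, 4 members with the highest mean and 1 with the largest spread of each list, and the markers that define the cell type. The members and lists were chosen with earlier results of these data known, and 8 added lists and the gap patterns after the values were seen. Chosen after their values were seen and outside this rule were Foxf1, Car12, Hapln1, Col11a1, Comp, Col3a1, Thy1, Pdgfra, Cnn1, Il6, Tnf, Il1b, Chrne, Myh1, Myh2, Myh8, Myh7, Igfbp5, Mmp9, Timp3, Mmp14, Timp2, Adamts4, Csf3, Cxcl3, Lif, Ptges, Nos2, Cxcl10, Tnfaip3, Hmox1, Gclc, Col6a1, Col6a2, Bmp2, Gdf6, Pappa, Igfbp4, Hp, Itga7, Ldha, Lamp2, Hoxa3, Scx and Mki67. Of 67 repeated symbols the row with the highest mean was kept. Transcript lengths were not used here, and floors cover counting error only. Promoters and microRNAs are RefSeq's, on GRCr8. Alternatives were other scalings, pseudocounts, minimum means and folds, and leaving out each library. Some genes that the rule names are not reported here.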

Additional observations from a re-analysis of the deposited data

Results flagged for a closer look

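For 223 genes named by rule and 4 measures of the libraries (reads, genes with no read, and the shares of reads in the first 10 and 100 genes), the gap between the highest or lowest control library and its nearest neighbour was divided by the range of the 4 values (for genes, of log2(value + 1)), and 14 of the 227 (6.17%), all of them genes, passed Dixon's 95% critical value for 4 values. Chance passes about 1 gene in 20, and over all 9442 genes 538 (5.70%) passed. Library 4 stood low for Ahnak (0.902), Slc25a48 (0.904) and Tek (0.856), an endothelial receptor gene. It stood high for Cxcl2 (0.899), Nfkb1 (0.987) and Ibsp (0.964). Library 3 stood low for the matrix gene Lum (0.967) and for Dkk3 (0.925). Library 1 stood high for Wnk1 (0.985) and Pcna (0.867), and low for Phf14 (0.919), Hoxd9 (0.905) and the junction gene Esam (0.907). Library 2 stood high for Sparc (0.877). Phf14 is among the 10 genes of smallest spread, so its gap is small in size.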

How the results depend on the processing

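The number of genes that varied 4-fold, 867, was 1964 at a minimum mean of 10, 2673 with no minimum, 413 at 8-fold and 408 between libraries 3 and 4 alone with the mean taken over that pair (426 with the mean over all 4), and lay between 474 and 789 with any 1 library left out (577 without library 1, 474 without library 4). The median spread of 0.33 was 0.39 at a minimum mean of 10, 0.41 with none, 0.26 over libraries 3 and 4 alone and 0.229 as a coefficient of variation, and 0.26 to 0.36 with 1 library left out. The share of list members that varied, 28.1%, was 15.9% without library 4 and 15.9% to 26.02% with any 1 left out. At a minimum mean of 10 the gap patterns held 187 genes high in libraries 1 and 2, 112 high and 218 low in library 4, and 176 low in library 3. With an 8-fold gap 35 were high and 23 low in library 4, and 27 low in library 3. These follow from the thresholds and samples used; the settings on libraries 3 and 4 and on gap patterns were chosen after seeing the data. The share of variable genes highest in library 4 was 35.9%, and 26.04% in CPM. Of 226 named genes, the mean moved by over 1.5 times in 51 without library 1, 7 without library 2, 13 without library 3 and 24 without library 4. Without library 4 the Mmp13 mean normalized count was 13491, against 57224 with it, the Mmp10 mean normalized count was 3951, against 35314.5, and the Cxcl2 mean normalized count was 1383, against 11155. The ranking per kb was not run. No paired analysis was possible because the values describe 1 group and come from no test. Genes of few reads have a spread that counting error alone can raise, hence the minimum mean.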
